A study of Mus musculus with 2 samples.

Results

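Serine is made from the glycolytic intermediate 3-phosphoglycerate by a chain of 3 enzymes, and its side carbon is then passed to tetrahydrofolate, the carrier of one-carbon units. The 9 genes described here encode the enzymes of this route: Phgdh, Psat1 and Psph for serine synthesis, Shmt1 and Mthfd1 for the cytosolic branch of folate metabolism, and Shmt2, Mthfd2, Mthfd1l and Aldh1l2 for the mitochondrial branch. They were chosen by gene symbol, with earlier results of these data known. Each symbol stood on 1 locus of the 54680 in the deposited table. The RNA came from CT26, a mouse colon cancer cell line, and was sequenced. The shSetdb1 group received a lentivirus with a short hairpin RNA against Setdb1, a histone H3 lysine 9 methyltransferase, and is labelled as differentiated. The shCtrl group received a lentivirus with the empty knockdown vector and is labelled wild type in genotype. Both groups grew in RPMI medium with serum for 6 days and were represented by 1 library each, made from total RNA. The labels do not say whether the transduced cells were a pool or a clone.

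With 1 library in each of the 2 groups, no difference below has a replicate check, and no test between conditions was made. Values describe these libraries. The shCtrl library held 18421604 reads and the shSetdb1 library 19045830 reads, recovered from the deposited FPKM (a fragment count normalised to transcript model length and sequencing depth). A log2 ratio is that of (FPKM + 1), shSetdb1 over shCtrl, and understates differences at low levels. A read ratio is relative to each library's own total, with a 95% exact binomial (Clopper-Pearson) interval in brackets. The interval covers counting error only, because 1 library per group gives no replicate error. PCR copies without molecular identifiers are not independent molecules, so it may be too narrow even for counting error. A gene was counted as lower or higher when its log2 ratio passed 2-fold. Setdb1 itself was at 10.4 FPKM in shCtrl and 2.47 FPKM in shSetdb1, in the direction of the labels, and 1.09% of its exon bases lie under exons of Cers2. Of the markers that define colon epithelium, Epcam and Cdh1 had 0 reads in both libraries (which allows up to 3 reads in each), and 3 of the 8 markers reached 1 FPKM. These 3 reached it in at least 1 library, and not all of them in shCtrl. The summed level of those 8 markers was 43.2 FPKM in shCtrl and 128 FPKM in shSetdb1. The 3 markers made up nearly all of both sums, and the other 5 together had 13 reads in shCtrl and 33 in shSetdb1. Of 5 leukocyte markers only Cd68 reached 1 FPKM, at 10.4 FPKM in shCtrl and 100.2 FPKM in shSetdb1, while Ptprc had 0 and 4 reads and Adgre1 and Cd3e had none. None of 3 endothelial markers had reads. All 4 mesenchymal markers reached 1 FPKM, with Vim at 751.6 FPKM in shCtrl and 835.1 FPKM in shSetdb1, Pdgfrb at 13.5 and 14.6 FPKM, Col1a1 at 32.1 and 24.0 FPKM and Col3a1 at 2.68 and 0.887 FPKM. The part of these markers in the results below was not tested.

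The pathway works in both compartments of the cell. In the mitochondrion, serine hydroxymethyltransferase splits serine into glycine and a one-carbon unit, which is oxidised stepwise and leaves as formate; in the cytosol, formate is loaded back onto folate for the synthesis of purines, thymidylate and methionine. Proliferating tumour cells are known to use the mitochondrial branch heavily, and the transcription factor ATF4 is a known activator of several of these genes.

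Most of the 9 enzymes were lower in the Setdb1 knockdown library. In all, 8 of 9 had a log2 ratio below 0, as did 5336 of the 10671 genes reaching 1 FPKM in either library. Past the threshold, 7 of 9 were at least 2-fold lower, against a background of 4.85% that were this much lower among the 10671 genes. None was at least 2-fold higher, against 6.81% of those genes. The median log2 ratio of the 9 was -1.61, and that of all 10671 genes was -0.00039 with quartiles of -0.36 and 0.38. Their reads together made up 0.501% (0.498% to 0.504%) of the shCtrl library and 0.174% (0.172% to 0.176%) of the shSetdb1 library. In RNA from bulk cultures, fewer cells expressing a gene and less RNA per cell cannot be told apart. The 2 genes outside this pattern were Shmt1 and Mthfd1l, and they belong to different compartments.

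**Figure D1:**
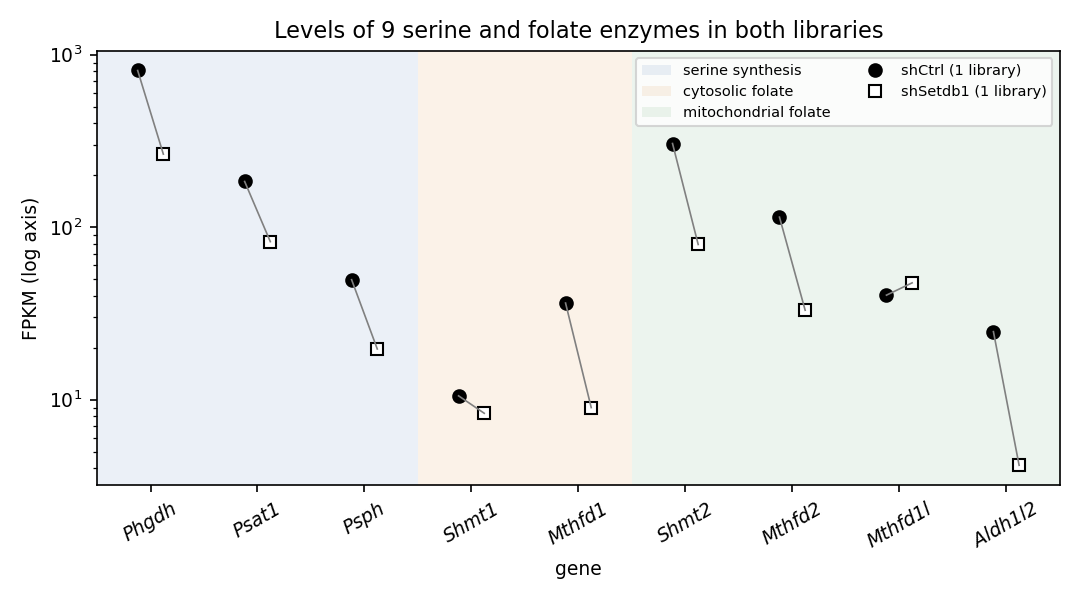
Level of each enzyme in FPKM (log axis) in the shCtrl library (filled circles) and the shSetdb1 library (open squares), 1 library each, with shading for serine synthesis, cytosolic folate and mitochondrial folate enzymes. Every enzyme but Mthfd1l had its lower level in the shSetdb1 library, and Phgdh was the highest of the 9 in both.

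Phgdh encodes 3-phosphoglycerate dehydrogenase, the enzyme that commits the glycolytic intermediate to serine synthesis. The gene (ENSMUSG00000053398) is on chromosome 3, minus strand (98313170 to 98339990, in GRCm38 as are all positions below). Its level was 809.6 FPKM (37701 reads) in shCtrl and 265.1 FPKM (12344 reads) in shSetdb1. The read ratio was 0.317 (0.310 to 0.323) and the log2 ratio -1.61, at percentile 1.11 of the ratios of the 10671 genes, counted from the lowest. Phgdh ranked 37 by FPKM among protein-coding genes in shCtrl and 183 in shSetdb1, and it made up 51.4% and 48.3% of the summed FPKM of the 9 enzymes. It therefore remained the most abundant of these transcripts in both libraries.

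Phgdh is the member whose copies elsewhere in the genome had reads. The authors' table gives 24 other loci the same protein match, and 9 of them, all processed pseudogenes, had reads. They held 4961 reads in shCtrl and 1838 in shSetdb1, or 11.6% of the reads of all Phgdh loci in shCtrl. The highest were Gm7901 on chromosome 8 (75711600 to 75713196), at 95.2 FPKM in shCtrl and 35.2 FPKM in shSetdb1, and Gm9347 on chromosome 7 (136810909 to 136812515), at 56.2 and 22.3 FPKM. Both were lower in shSetdb1, with log2 ratios of -1.41 and -1.30. How reads matching several loci were assigned is not given in the sources used here, so the level of Phgdh is less certain than its counting interval shows. Summed over Phgdh and these copies, the read ratio was 0.322 (0.315 to 0.328). Psat1, Shmt2, Mthfd2 and Mthfd1l each had 1 such other locus, without reads, and none was listed for the rest, although for Psph the table names no protein match to search with.

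Psat1 (ENSMUSG00000024640) encodes phosphoserine aminotransferase, the middle step of the chain. It lies on the minus strand of chromosome 19 (15904678 to 15947337). It was at 184 FPKM (14661 reads) in shCtrl and 82.4 FPKM (6565 reads) in shSetdb1, a read ratio of 0.433 (0.421 to 0.446) and a log2 ratio of -1.15. This was the smallest difference of the 3 serine synthesis enzymes. Psph (ENSMUSG00000029446) encodes phosphoserine phosphatase, which releases free serine, and lies on the minus strand of chromosome 5 (129765558 to 129787449). It was at 49.6 FPKM (4020 reads) in shCtrl and 19.7 FPKM (1594 reads) in shSetdb1, with a read ratio of 0.384 (0.362 to 0.407) and a log2 ratio of -1.29. Exons of Cct6a, a chaperonin gene on the opposite strand, cover 10.4% of the Psph exon bases. Cct6a had 4137 reads in shCtrl and 3298 in shSetdb1, a log2 ratio of -0.32, and whether counting used strand is not given in the sources used here.

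All 3 serine synthesis enzymes were thus past 2-fold, with a median log2 ratio of -1.29. They kept the same order of level in both libraries, Phgdh above Psat1 above Psph, but not the same proportions. Phgdh was 4.40 times the level of Psat1 in shCtrl and 3.22 times in shSetdb1, and the Psat1 read ratio was 1.37 times (1.32 to 1.42) that of Phgdh. Likewise Phgdh was 16.3 times the level of Psph in shCtrl and 13.5 times in shSetdb1. These pairs of serine enzymes were chosen for comparison after their values were seen.

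**Figure D2:**
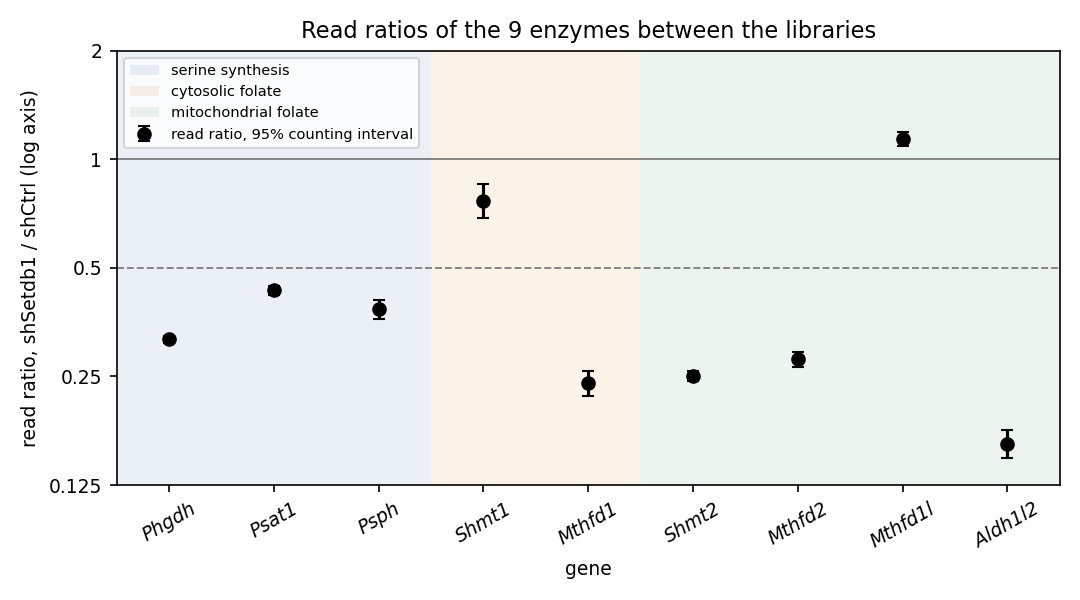
Read ratio of each enzyme, shSetdb1 over shCtrl and relative to each library's total (log axis), with 95% exact binomial intervals for counting error. The solid line marks equal levels and the dashed line a ratio of 0.5. The intervals of 7 enzymes lie below 0.5, that of Shmt1 between 0.5 and 1, and that of Mthfd1l above 1.

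Shmt2 (ENSMUSG00000025403) encodes mitochondrial serine hydroxymethyltransferase, the entry of serine carbon into the mitochondrial branch. It lies on the minus strand of chromosome 10 (127517123 to 127522444). It had 305.5 FPKM (17789 reads) in shCtrl and 79.3 FPKM (4620 reads) in shSetdb1. The read ratio was 0.251 (0.243 to 0.259), the log2 ratio was -1.93, and the gene went from rank 155 to rank 709 among protein-coding genes. The antisense neighbour Ndufa4l2 overlaps 1.03% of its exon bases and had only 10 and 31 reads.

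Mthfd2 (ENSMUSG00000005667) encodes the mitochondrial methylenetetrahydrofolate dehydrogenase and cyclohydrolase, an enzyme known to be high in embryonic and tumour cells and low in most adult tissues. It lies on the minus strand of chromosome 6 (83305691 to 83325908). It was at 114 FPKM (7465 reads) in shCtrl and 33.0 FPKM (2154 reads) in shSetdb1, a read ratio of 0.279 (0.266 to 0.293) and a log2 ratio of -1.76. Aldh1l2 (ENSMUSG00000020256) encodes mitochondrial 10-formyltetrahydrofolate dehydrogenase, which oxidises the one-carbon unit to carbon dioxide and makes NADPH. It lies on the minus strand of chromosome 10 (83487450 to 83534140). It had 24.8 FPKM (3483 reads) in shCtrl and 4.16 FPKM (585 reads) in shSetdb1. Its read ratio of 0.162 (0.149 to 0.177) and log2 ratio of -2.32, at percentile 0.291, were the lowest of the 9 enzymes. Exons of D10Wsu102e on the opposite strand cover 14.1% of the Aldh1l2 exon bases, and that gene had 1026 reads in shCtrl and 650 in shSetdb1.

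Mthfd1l (ENSMUSG00000040675) did not share this pattern. It encodes the mitochondrial formate-tetrahydrofolate ligase that releases formate, and it lies on the plus strand of chromosome 10 (3973118 to 4167081). Its level was 40.3 FPKM (3351 reads) in shCtrl and 47.5 FPKM (3949 reads) in shSetdb1. The read ratio was 1.14 (1.09 to 1.19) and the log2 ratio 0.23, at percentile 66.5, which lies inside the quartiles of all genes. It was 1 of the 9 with the higher level in shSetdb1, and it moved from the sixth to the fourth place among them by FPKM. Under the scalings tried and a pseudocount of 0.1, its log2 ratio stayed between 0.14 and 0.24.

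In the cytosol, Shmt1 and Mthfd1 differed from each other. Shmt1 (ENSMUSG00000020534) encodes cytosolic serine hydroxymethyltransferase and lies on the minus strand of chromosome 11 (60788104 to 60811718). It was the lowest of the 9 in shCtrl, at 10.5 FPKM (765 reads), and was at 8.33 FPKM (606 reads) in shSetdb1. The read ratio was 0.766 (0.688 to 0.853), and the log2 ratio of -0.30 at percentile 28.5 did not reach 2-fold and lay inside the quartiles of all genes. Smcr8 on the opposite strand covers 4.74% of its exon bases and had 932 and 1098 reads, so with few reads of its own Shmt1 is among the less certain values. Mthfd1 (ENSMUSG00000021048) encodes the trifunctional cytosolic enzyme that loads formate onto folate and interconverts the folate forms used for purines and thymidylate. It lies on the plus strand of chromosome 12 (76255298 to 76319803). It was at 36.3 FPKM (3021 reads) in shCtrl and 8.99 FPKM (748 reads) in shSetdb1, with a read ratio of 0.239 (0.221 to 0.260) and a log2 ratio of -1.90 at percentile 0.637. The counting interval of the Mthfd1 read ratio overlapped that of Shmt2.

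The comparison of cytosolic with mitochondrial folate enzymes asked whether one branch differed more than the other. As sums of FPKM the branches were close to each other: the 2 cytosolic enzymes went from 46.8 to 17.3 FPKM, or 37.0% of the shCtrl level, and the 4 mitochondrial enzymes from 485 to 164 FPKM, or 33.8%. The 3 serine synthesis enzymes stood at 35.2%. By reads, the ratio was 0.346 (0.325 to 0.368) for the cytosolic and 0.341 (0.334 to 0.348) for the mitochondrial enzymes, and these intervals overlap. Sums weigh the highest gene of each branch most. In shCtrl, Mthfd1 held 36.3 of the 46.8 FPKM in the cytosol and Shmt2 305 of the 485 FPKM in the mitochondrion. The median log2 ratio was -1.10 over the 2 cytosolic and -1.85 over the 4 mitochondrial enzymes. The mean was -1.10 against -1.45, a difference of 0.34. Each branch held 1 gene within the quartiles of all genes, and the spread inside a branch, from -1.90 to -0.30 in the cytosol and from -2.32 to 0.23 in the mitochondrion, was larger than that difference.

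Pairs of related enzymes within a library do not depend on the scaling between libraries, and here the balance shifted in several ways. Shmt2 was 29.0 times the FPKM of its cytosolic counterpart Shmt1 in shCtrl and 9.52 times in shSetdb1. The Shmt1 read ratio was 3.05 times that of Shmt2, with an exact conditional interval of 2.72 to 3.41 for counting error. Mthfd2 was 3.15 times the level of Mthfd1 in shCtrl and 3.67 times in shSetdb1, and the Mthfd1 read ratio was 0.858 (0.781 to 0.943) of that of Mthfd2. The serine hydroxymethyltransferase pair thus moved towards the cytosolic form, while the dehydrogenase pair moved slightly towards the mitochondrial one.

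Of the 3 pairs that cross the compartments, the C1-tetrahydrofolate synthases shifted most. Mthfd1l was 1.11 times the level of its cytosolic counterpart Mthfd1 in shCtrl and 5.29 times in shSetdb1. The Mthfd1 read ratio was 0.210 (0.191 to 0.231) of that of Mthfd1l. Inside the mitochondrion, Mthfd2 and Mthfd1l act one after the other on the same carbon, and their order reversed. Mthfd2 was 2.83 times Mthfd1l in shCtrl and 0.694 times in shSetdb1, and the Mthfd1l read ratio was 4.08 times (3.82 to 4.37) that of Mthfd2. This last pair was chosen after its values were seen.

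**Figure D3:**
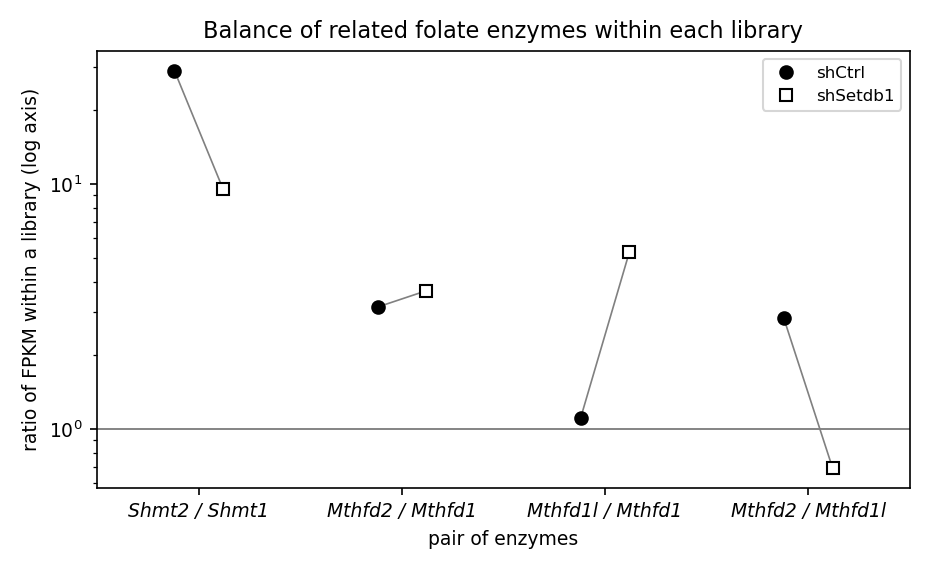
Ratio of FPKM between enzymes of a pair within the shCtrl library (filled circles) and the shSetdb1 library (open squares), on a log axis, with the line at equal levels. Shmt2 over Shmt1 went from 29.0 to 9.52, Mthfd1l over Mthfd1 from 1.11 to 5.29, and Mthfd2 over Mthfd1l from 2.83 to 0.694.

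Promoter sequence was examined because 7 of the 9 genes were lower together. RefSeq promoter windows, from 250 bases before to 50 bases after a start site on GRCm38.p6, matched 8 of the 9 members by symbol, with 9 windows since Psat1 has 2. The motifs searched on both strands were TGATGNAA (the composite element bound by ATF4 with C/EBP proteins), CACGTG (the E-box bound by MYC and MAX), CCAAT (the box bound by NF-Y) and GGGCGG (the GC box bound by SP1). They were chosen with the expression results known. The CCAAT box was found in the windows of 6 of the 8 genes, namely Phgdh, Psat1, Psph, Mthfd2, Mthfd1 and Shmt1, which is 6 of the 9 windows, and in 37.4% of all 32851 windows. It was not found in those of Shmt2 and Mthfd1l. The GC box was in 5 of the 9 windows and 35.7% of all windows. TGATGNAA and CACGTG were in none of the 9 windows and in 3.97% and 7.15% of all windows. A match is a run of letters and not a bound site, and these windows do not cover introns or distant elements.

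The upstream part of 6 windows is shown: Phgdh, Psat1 and Mthfd2 were past 2-fold lower and hold CCAAT, Shmt2 was past 2-fold lower and holds none, Shmt1 was not past 2-fold and holds it, and Mthfd1l was not lower and holds none. Psph and Mthfd1, also past 2-fold lower, hold CCAAT too but are not shown. Whether the box bears on the levels was not tested. Each stretch shown runs 5′ to 3′ along the strand of its gene and leaves out bases under annotated exons. CCAAT, or ATTGG for the opposite strand, is in capitals. The stretches are chr3:98339991-98340219 on the minus strand for Phgdh, chr19:15925060-15925309 on the minus strand for Psat1, chr6:83317607-83317854 on the minus strand for Mthfd2, chr10:127522445-127522694 on the minus strand for Shmt2, chr11:60811266-60811466 on the minus strand for Shmt1 and chr10:3972825-3973074 on the plus strand for Mthfd1l.
Phgdh: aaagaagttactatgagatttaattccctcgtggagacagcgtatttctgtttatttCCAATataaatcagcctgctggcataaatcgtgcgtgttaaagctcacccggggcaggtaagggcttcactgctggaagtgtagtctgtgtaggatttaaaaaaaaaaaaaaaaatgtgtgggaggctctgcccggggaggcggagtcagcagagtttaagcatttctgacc
Psat1: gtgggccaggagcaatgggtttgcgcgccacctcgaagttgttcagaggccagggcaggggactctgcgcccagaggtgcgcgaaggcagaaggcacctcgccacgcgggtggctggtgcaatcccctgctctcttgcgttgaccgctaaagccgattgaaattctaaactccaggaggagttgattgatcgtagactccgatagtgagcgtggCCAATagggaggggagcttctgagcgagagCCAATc
Mthfd2: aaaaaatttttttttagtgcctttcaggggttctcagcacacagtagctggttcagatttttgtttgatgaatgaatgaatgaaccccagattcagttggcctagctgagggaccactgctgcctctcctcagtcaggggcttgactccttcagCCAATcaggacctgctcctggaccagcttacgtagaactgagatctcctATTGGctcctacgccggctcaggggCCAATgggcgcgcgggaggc
Shmt2: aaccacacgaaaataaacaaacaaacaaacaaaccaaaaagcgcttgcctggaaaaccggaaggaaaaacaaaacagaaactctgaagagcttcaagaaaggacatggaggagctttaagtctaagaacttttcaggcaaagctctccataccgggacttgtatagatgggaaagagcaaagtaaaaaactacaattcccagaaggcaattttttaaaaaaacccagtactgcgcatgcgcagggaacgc
Shmt1: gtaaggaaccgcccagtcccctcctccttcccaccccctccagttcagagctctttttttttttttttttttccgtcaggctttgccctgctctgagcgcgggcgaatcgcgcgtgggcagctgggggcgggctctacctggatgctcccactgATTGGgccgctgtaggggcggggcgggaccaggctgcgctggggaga
Mthfd1l: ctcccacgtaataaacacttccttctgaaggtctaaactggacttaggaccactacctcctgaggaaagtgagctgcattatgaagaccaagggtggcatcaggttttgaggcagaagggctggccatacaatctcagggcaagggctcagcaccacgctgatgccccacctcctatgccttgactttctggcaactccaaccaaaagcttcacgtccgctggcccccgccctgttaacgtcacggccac
The Mthfd2 stretch holds 3 CCAAT boxes, which begin 96, 47 and 22 bases before its RefSeq start. The Psat1 stretch holds 2, at 36 and 6 bases, the Phgdh stretch holds 1, at 193 bases, and the Shmt1 stretch 1, at 47 bases. Another CCAAT of Phgdh, 23 bases before its RefSeq start, runs across the edge of an annotated exon, so it is not shown whole.

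The genes next to the members on the chromosome were compared as a view of position. Of the 17 nearest genes at 1 FPKM on either side, 12 had a log2 ratio below 0 and 5 above, with a median of -0.33, and 1 was at least 2-fold lower. Not all lay close, as the distances ran from 108 bases to 3108552 bases, the latter beside Psat1. Of the 5 above 0, the neighbour of Mthfd1 reached 1 FPKM only in shSetdb1, on 5 reads in shCtrl and 8 in shSetdb1. Of the 12 below 0, a neighbour of Aldh1l2 reached it only in shCtrl, on 172 and 90 reads. Over all 10671 genes 50% were below 0 and 4.85% at least 2-fold lower, and 1 of 17 is near that last share. That gene, Mob1a, named after its values were seen, encodes a Hippo pathway adaptor and begins on the opposite strand 108 bases from the 5′ end of the Mthfd2 model in the table. The RefSeq start used for the Mthfd2 promoter lies inside that model, farther from Mob1a. Mob1a was at 16.4 FPKM in shCtrl and 7.19 FPKM in shSetdb1. Shmt2, Mthfd1l and Aldh1l2 share chromosome 10 but lie far apart on it.

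Genes connected to the pathway were taken from 7 lists and described in the same way. The lists were chosen with earlier results of these data known, so their counts are descriptive and not independent support. The counts below are to be read against all 10671 genes, of which 50% had a log2 ratio below 0, 4.85% were at least 2-fold lower and 6.81% at least 2-fold higher. Among genes at 1 FPKM, the list with the lowest median was that of serine and glycine transport or breakdown. Of its 8 genes, 5 reached 1 FPKM, and 4 of these, all transporters, were at least 2-fold lower. The median log2 ratio over the 5 was -2.14. With no filter the median of this list was -1.13. The list of transcription factors and amino acid response markers was then the lowest, at -1.48. Slc6a9, the glycine transporter GLYT1, was at 41.7 FPKM (4019 reads) in shCtrl and 3.35 FPKM (323 reads) in shSetdb1, a log2 ratio of -3.29. Slc1a5, a transporter of glutamine and other neutral amino acids, was at 205 and 53.4 FPKM. Slc1a4, which carries serine and alanine, was at 47.7 and 10.1 FPKM, and Slc38a2, a sodium-coupled neutral amino acid transporter, at 74.9 and 15.8 FPKM. Sdsl, a serine dehydratase-like gene, had 34 and 47 reads, and its read ratio of 1.34 had an interval of 0.842 to 2.14.

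The list of transcription factors of the pathway and markers of the amino acid response had 9 members at 1 FPKM, of which 9 had a log2 ratio below 0 and 7 were at least 2-fold lower, against 50% and 4.85% of all genes. Its median of -1.48 was near that of the 9 enzymes. Atf4, whose protein activates genes of amino acid synthesis, was at 479 FPKM in shCtrl and 178 FPKM in shSetdb1, a log2 ratio of -1.42. Much of the control of ATF4 is at translation, which RNA levels do not show. Atf5, a related factor, was at 846 and 213 FPKM, and Asns, asparagine synthetase, at 424 and 129 FPKM. Trib3, a pseudokinase induced by ATF4, was the lowest, at 362 and 41.6 FPKM with a log2 ratio of -3.09. Chac1, a glutathione-degrading enzyme, had a log2 ratio of -2.00, and Ddit3, which encodes CHOP, one of -1.06. Myc, also a known activator of serine and folate genes, was at 86.5 and 30.4 FPKM (log2 ratio -1.48). Nrf1, nuclear respiratory factor 1, had the smallest difference, from 6.34 to 5.88 FPKM. Whether any of these factors bears on the levels of the 9 enzymes was not tested.

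Of 12 further cytosolic folate genes, 6 reached 1 FPKM, 4 with a log2 ratio below 0 and 2 above, and the median was -0.59, or -0.00828 over all 12 with no filter. Slc19a1, the reduced folate carrier of the plasma membrane, was the only one of them at least 2-fold lower, at 15.6 FPKM in shCtrl and 6.22 FPKM in shSetdb1. Of 8 further mitochondrial folate genes, 7 reached 1 FPKM, 4 below and 3 above 0, with a median of -0.36, or -0.97 with a filter at 5 FPKM. Of the 3 above 0, Sfxn2 reached 1 FPKM only in shSetdb1, with 49 reads in shCtrl and 62 in shSetdb1. The read ratio intervals of Sfxn2 (0.828 to 1.82) and Mthfd2l (0.897 to 1.41) include a ratio of 1. Sfxn1, a mitochondrial serine transporter, was the only one at least 2-fold lower, at 8.62 and 3.18 FPKM, and Mtfmt, which formylates the initiator methionyl-tRNA of mitochondria, was the highest, at 3.04 and 4.12 FPKM. Other carriers of these lists did not pass 2-fold, with log2 ratios of -0.45 for Slc46a1, -0.36 for Slc25a32, -0.59 for Sfxn3 and 0.16 for Sfxn2, named after their values were seen.

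The glycine cleavage system makes one-carbon units from glycine, and the methionine cycle and purine synthesis use them. Of the glycine cleavage system, Gcsh went from 65.1 to 34.1 FPKM and Dld, which other dehydrogenase complexes share, from 8.93 to 4.73 FPKM, while Gldc and Amt stayed under 1 FPKM. Of 11 methionine cycle genes, 7 reached 1 FPKM and 6 of them had a log2 ratio below 0, with a median of -0.56. Mat2a, which makes S-adenosylmethionine, the donor for methyltransferases, was the 1 member at least 2-fold lower, at 58.9 FPKM in shCtrl and 15.9 FPKM in shSetdb1 (log2 ratio -1.83), and Ahcyl2 was the highest at 0.06. Of 13 purine synthesis genes, 10 were below 0 and 3 above, with a median of -0.38. Atic, which uses a formyl-folate for the last steps of purine ring closure, was the lowest at -0.91, from 71.0 to 37.4 FPKM. Adssl1, an adenylosuccinate synthase isozyme known from muscle, was the highest at 1.15, from 10.8 to 25.3 FPKM.

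**Figure D4:**
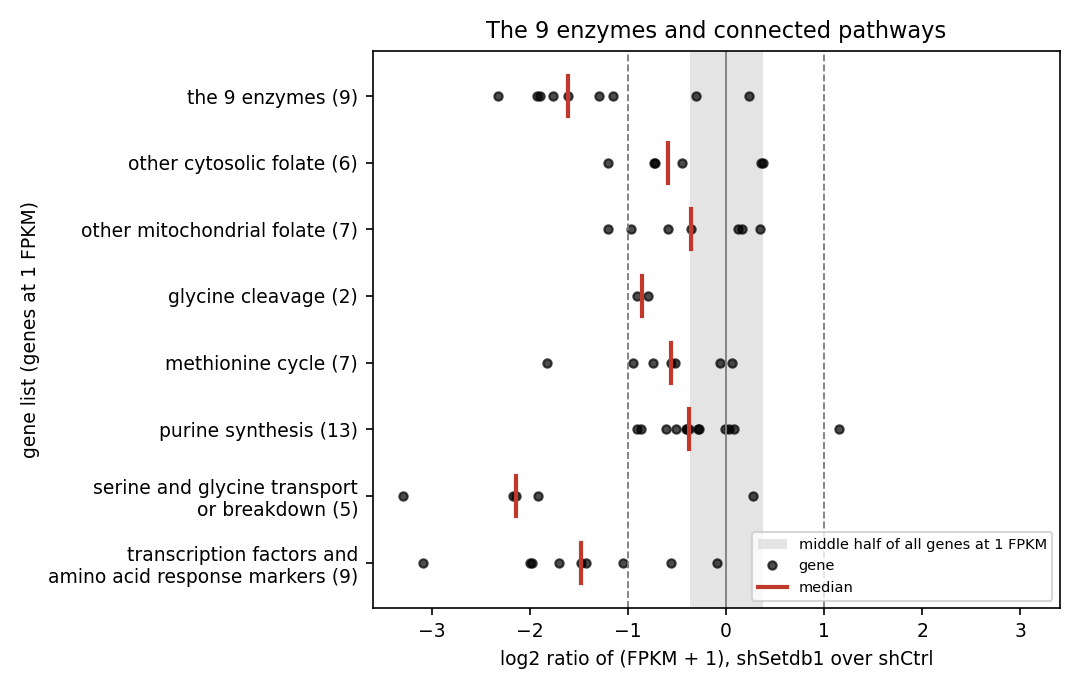
Log2 ratio of (FPKM + 1), shSetdb1 over shCtrl, for each gene at 1 FPKM or more (points) of the 9 enzymes and 7 connected lists, with the median of each list (red bars), the number of genes in brackets, dashed lines at 2-fold and shading for the quartiles of all genes. Medians ran from -2.14 for serine and glycine transport or breakdown to -0.36 for other mitochondrial folate genes.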

How the data were processed

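RNA sequencing of CT26 cells, 1 library per group, was analysed from the authors' gene table. The authors deposited FPKM values, and the submitters' processing notes name CASAVA, HISAT2, featureCounts 1.5.0-p3 and GRCm38. Strand and multimapping settings are not given in the sources used here. Columns were matched to samples by library name.

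FPKM times gene length was a whole multiple (within 0.01) of 1 step for 100% of values above 0, which gave reads. One depth, 18731117 reads, underlies both columns. The log2 ratios were left on that footing and so include the 1.03-fold difference in read totals, whereas the read ratios correct for it. The pseudocount was 1 FPKM, the filter 1 FPKM in at least 1 library, the threshold 2-fold. Intervals are 95% exact binomial, or exact conditional for ratios of read ratios, and cover counting error. Where a symbol stood on several loci, that with most reads was used. Exon overlaps used GENCODE M21, where 98.3% of the gene IDs found had the same start and end as the table.

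The members and lists were chosen with earlier results of these data known. Named genes were Setdb1, the 9 enzymes, and of each list every gene at 1 FPKM (where 5 or fewer) or the highest, the lowest and those past 2-fold. Mob1a, the pseudogenes and the genes that overlap members were named outside this rule, after their values were seen. Results for 2 genes of the lists are not reported here.

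Alternatives were a pseudocount of 0.1, 4 scalings, no filter or 5 FPKM, a 1.5-fold threshold, means for medians and reads summed over loci with 1 protein match. Calculations were tested on simulated data. The work used Python 3.11.15 with scipy 1.17.1, pandas 2.3.3, numpy 2.4.6 and matplotlib 3.10.9.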

Additional observations from a re-analysis of the deposited data

How the results depend on the processing

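Of 111 alternative values of 15 summary results, 93 lay inside the counting interval (counts: inside a factor of 1.5), 18 moved and 0 reversed. Of 54 alternative values of the 9 single enzymes, 41 stayed within counting error, 13 moved and 0 reversed. Among these, summing reads over loci could change only Phgdh, because the other loci of the rest had no reads. The count of enzymes at least 2-fold lower was 7 under each alternative pseudocount and scaling, and 7 were lower at 1.5-fold. The filters could not change it, because every enzyme was above 5 FPKM in shCtrl. The cytosolic minus mitochondrial difference of means stayed between 0.34 and 0.35. Most of these runs could hardly move it, because scaling acts on both branches and summing loci adds no reads to folate enzymes. It was not run with medians, which were -1.10 (cytosolic) and -1.85 (mitochondrial). Upper-quartile scaling gave the biggest shift of the median gene, -0.0810 on the log2 scale. It put serine synthesis at -1.38, mitochondrial folate at -1.94, purine synthesis at -0.47 and the transcription factor and amino acid response list at -1.57. Scaling without the 100 highest genes put mitochondrial folate at -1.91. As means, mitochondrial folate was at -1.45 (Mthfd1l counts fully), purine synthesis at -0.26 and transport or breakdown at -1.85. With no filter, other cytosolic folate was at -0.00828, glycine cleavage at -0.36, the methionine cycle at -0.31 and transport or breakdown at -1.13, since genes with few reads were added. With a filter at 5 FPKM, other mitochondrial folate was at -0.97 and the methionine cycle at -0.74, over fewer genes. Counts over all genes were 870 lower and 1134 higher with a pseudocount of 0.1, and 1523 lower and 1804 higher at 1.5-fold, against 518 and 727. For the other values the cause was not tested. No paired analysis was possible because shCtrl and shSetdb1 hold a single library each, which also leaves none to drop. Depth limits Shmt1 most among the enzymes, with 765 reads in shCtrl and 606 in shSetdb1.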

Other observations

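A pair of isozymes outside the 9 enzymes also differed in balance. This pair and the other genes of this paragraph were chosen after their values were seen. Adss, the widely expressed adenylosuccinate synthase, was at 18.9 FPKM in shCtrl and 9.91 FPKM in shSetdb1, and its read ratio was 0.506 (0.465 to 0.551). Its counterpart Adssl1 was at 10.8 and 25.3 FPKM, with a read ratio of 2.26 (2.01 to 2.54), so their order reversed between the libraries. Thymidylate synthase, Tyms, which uses one-carbon units for DNA synthesis, was at 6.67 FPKM in shCtrl and 8.83 FPKM in shSetdb1, a read ratio of 1.28 (1.16 to 1.41). Mthfd2l, the close relative of Mthfd2, had 147 and 171 reads. Sardh, mitochondrial sarcosine dehydrogenase, had a log2 ratio of -0.97.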
